A study of Oryctolagus cuniculus with 14 samples.

Results

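In rabbit corneas examined 4 weeks after sulfur mustard, 140 genes had their lowest expression in the eyes that had been exposed but were scored as clinically non-impaired, while their median in the clinically impaired eyes was 0.544 to 3.22 times that in unexposed eyes. They were chosen from 23669 Ensembl rabbit gene IDs by group medians of CPM (a gene's count per 1000000 counts of its library). A gene belonged to the group if its median was at least 3 CPM in naive and in impaired corneas, if its non-impaired median was at most 0.6 times each of these medians, and if its impaired median was more than 0.5 and less than 4 times its naive median. Since the medians of all libraries chose the genes, the differences between groups given here are descriptions of the choice, carry no test and support nothing beyond it.

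RNA-seq had been run on whole corneas of New Zealand White rabbits. The 5 clinically impaired and the 5 clinically non-impaired corneas came from eyes exposed to sulfur mustard vapor, and the 4 naive corneas, whose labels also carry 4 weeks, served as controls. The dose, the scoring of impairment, the age of the animals and whether each cornea came from its own rabbit are not given in the sources used here, so the spread between libraries may in part be technical. In whole tissue, fewer cells of a type and less RNA per cell cannot be told apart.

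Sulfur mustard is a vesicant that alkylates DNA and proteins, and the eye is among its most sensitive targets. The cornea is a transparent tissue of epithelium, a collagenous stroma with keratocytes and a single-layered endothelium. After the acute injury some eyes stay clinically quiet, while others go on to a late pathology with inflammation, epithelial defects and vessels growing into the normally avascular stroma.

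No gene names come with the IDs in the count files, and of the 23669 IDs 0 matched the RefSeq gene table used here (assembly mOryCun1.1), so no function, cell type marker, promoter or protein could be assigned to a member, and the labelled tissue was not checked against its markers. The 4 members given by ID below are the 2 with the deepest dip among members with a higher median in impaired than in naive corneas, and the 2 with the deepest among the rest. Other members are described by their values and by their rank in the depth of the dip.

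Libraries held 12002876 to 17488019 counts, and 10048 genes, all 140 members among them, had enough counts to be fitted. One impaired library, impaired 1, had a lower median level of these genes than the other 4, and naive 1 and 2 lay below naive 3 and 4. Impaired 1 also had the fewest counts of all libraries, with non-impaired 3 and 4 close to it. Results that rest most on impaired 1 are given with and without it.

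Of the 7828 genes with both medians at or above 3 CPM, 467 had a non-impaired median of at most 0.6 times the naive median and 588 of at most 0.6 times the impaired median. Both held for 150 genes, of which 7 were left out because the impaired median was not above 0.5 times the naive median and 3 because it was 4 times the naive median or more. The same rule turned round, for genes highest in non-impaired corneas by the same factors, chose 53 genes. At a dip to at most 0.5 times both medians, 55 genes fell below the naive and impaired corneas, and 17 stood above them by the turned rule. Both rules asked for at least 3 CPM in naive and impaired corneas. These are the higher groups in the rule for the members and the lower groups in the turned rule. The turned rule thus left out genes that are scarce outside non-impaired corneas, and the numbers are not like for like.

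**Figure D1:**
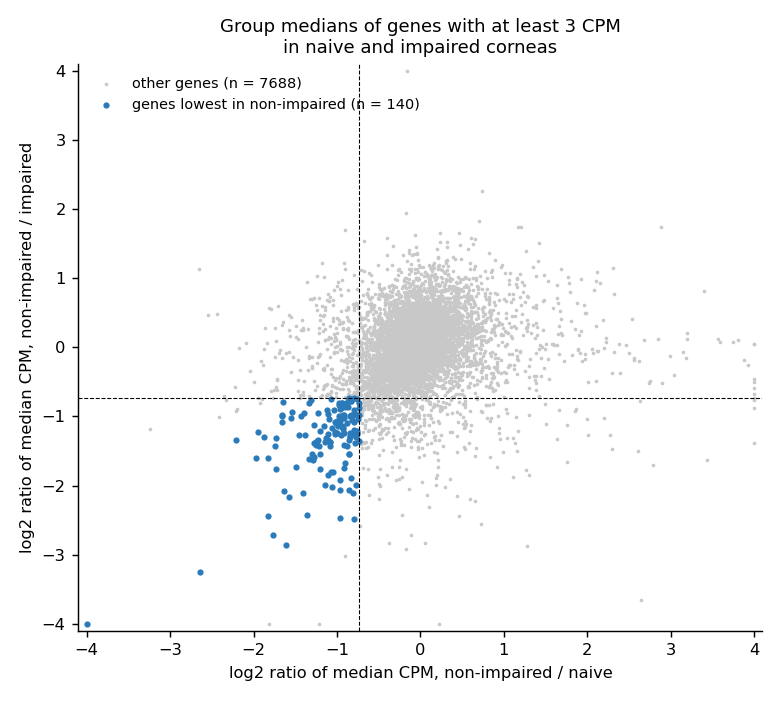
Each point is a gene with a median of at least 3 CPM in naive and in impaired corneas, placed by the log2 ratio of its non-impaired median to the naive median (x axis) and to the impaired median (y axis). Dashed lines mark a ratio of 0.6 on both axes, 15 genes beyond a log2 ratio of 4 in size are drawn at the edge, and the 140 members (blue) fill the lower left corner without a gap to the other genes (grey).

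The members formed the end of a continuum rather than a set apart. The dip ratio, the non-impaired median divided by the lower of the other medians, had a median of 0.518 over the members and of 1.10 over the 7828 genes. It lay at or under 0.5 in 55 members and between 0.5 and 0.6 in 85, while 203 further genes lay between 0.6 and 0.7 and 427 between 0.7 and 0.8. Just inside the limit stood a member with 40.2 CPM in naive, 24.1 CPM in non-impaired and 61.7 CPM in impaired corneas (medians, ratio 0.5998). Just outside it stood a gene with 8.71, 4.99 and 8.31 CPM (ratio 0.6004). A further 55 genes met every condition on the ratios but had a naive or impaired median between 1 and 3 CPM.

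The members were mostly genes of low to moderate abundance. Their naive medians ran from 3.11 to 726 CPM with a middle value of 15.5 CPM, against 38.8 CPM over all 7828 genes. In naive corneas 56 members were under 10 CPM, 69 lay between 10 and 100 CPM and 15 reached 100 CPM or more. The 10 most abundant members held 50.3% of the summed naive medians. Summed over the 5 non-impaired libraries, the members had 76 to 27815 counts with a median of 481.5, and 2 members had a library without a count. The library at the median could hold far fewer: in ENSOCUG00000024931 it had 2 counts.

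An impaired level close to the naive level was the commonest form, about as common as over all genes with both medians of at least 3 CPM. The impaired median lay within 0.7 to 1.4 times the naive median in 97 members, which is 69.3%, beside 71.3% of the 7828 genes. It was above 1.4 times in 32 members, above 2 times in 9 and under 0.7 times in 11. The ratio of impaired to naive medians had a middle value of 1.12 over the members and 0.950 over the 7828 genes.

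**Figure D2:**
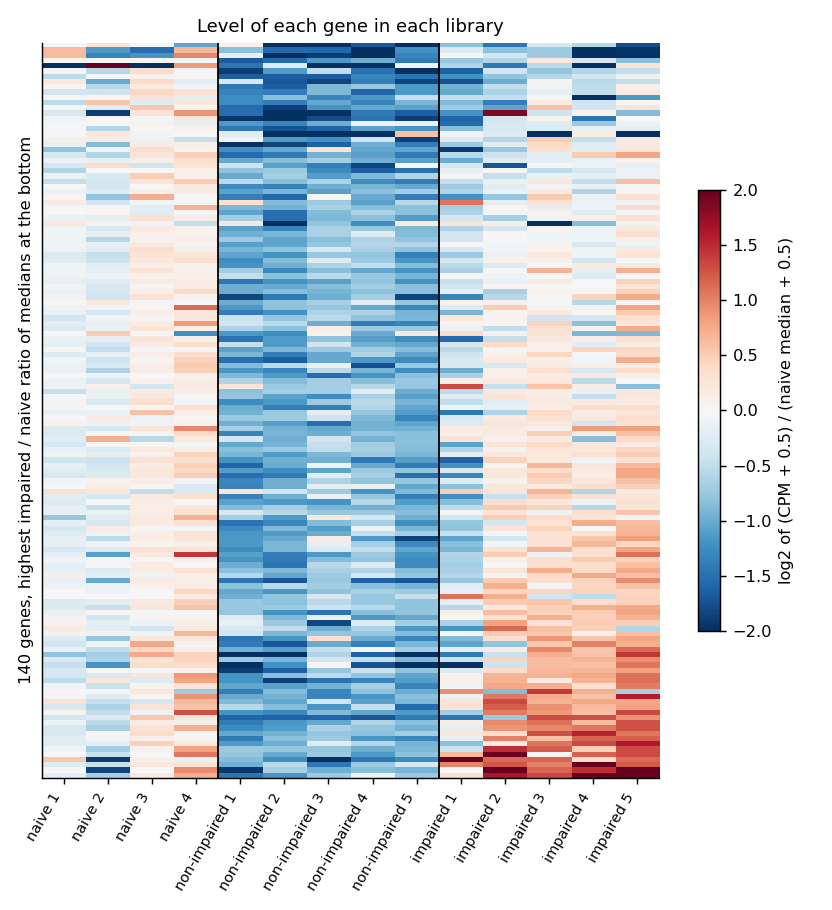
Rows are the 140 members, ordered by their impaired to naive ratio of medians, columns are the 14 libraries, and colour gives log2 of CPM plus 0.5 over the naive median plus 0.5, with values beyond 2 in size drawn in the end colours. The 5 non-impaired columns are blue almost throughout, the impaired columns change from blue or white at the top to red at the bottom, and impaired 1 is paler or bluer than impaired 2 to 5 in most rows.

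Among the members with the deepest dip and a higher impaired than naive median, ENSOCUG00000011824 had 3.03, 3.40, 10.05 and 7.91 CPM in naive 1 to 4. In non-impaired 1 to 5 it had 0.594, 0.907, 3.57, 1.497 and 0.859 CPM, and in impaired 1 to 5 it had 1.83, 4.03, 9.53, 8.61 and 16.0 CPM. Non-impaired 3 was above naive 1 and 2, and impaired 1 lay inside the non-impaired range, so the groups overlapped. Its log2 fold change in non-impaired corneas was -2.01 against naive (SE 0.64) and -2.48 against impaired corneas (SE 0.62). Without non-impaired 3 these were -2.62 and -3.09. Against naive, the gene was no longer called without non-impaired 1, 2, 4 or 5 or without naive 3 or 4, with log2 fold changes from -2.02 to -1.67.

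ENSOCUG00000017577 was more abundant and overlapped more. It had 14.6, 8.69, 26.2 and 25.9 CPM in naive 1 to 4, and 4.28, 8.46, 20.9, 5.74 and 3.67 CPM in non-impaired 1 to 5. Impaired 1 to 5 held 4.67, 15.1, 31.3, 31.1 and 43.0 CPM. Impaired 1 was again at the non-impaired level, and non-impaired 3 exceeded naive 1, naive 2, impaired 1 and impaired 2. The log2 fold change of non-impaired corneas was -1.09 against naive (SE 0.61) and -1.58 against impaired corneas (SE 0.59), and without non-impaired 3 it was -1.71 and -2.20. In the main fit the gene was called lower in neither comparison. Against impaired corneas it was called lower in 6 of the other fits, and against naive in none.

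The gene with the lowest ratio of all, ENSOCUG00000024931, was not graded but on or off. It had 4.00, 4.77, 3.89 and 4.07 CPM in naive 1 to 4, a narrow range from 55 to 73 counts. Non-impaired 1 and 5 had 3.33 and 6.30 CPM, while non-impaired 2 and 3 had 2 counts and 1 count and non-impaired 4 had none, which allows up to 0.249 CPM on a floor of 3 counts. In impaired 1, 2 and 4 it had 3.83, 3.30 and 4.51 CPM, with 2 counts in impaired 3 and none in impaired 5 (up to 0.193 CPM). The median fell in the low set in non-impaired corneas and in the high set in impaired corneas, although 3 of 5 libraries were low in the former and 2 of 5 in the latter. The dip ratio of 0.0366 thus reflects in which set the middle library of each group fell. The fitted log2 fold change of non-impaired against impaired corneas was -0.23 (SE 1.11); it was 0.20 without impaired 4, and 0.09, 0.06 and 0.09 without non-impaired 2, 3 or 4.

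ENSOCUG00000009784 showed the graded form with complete separation. Naive 1 to 4 had 6.86, 3.98, 8.49 and 8.45 CPM, non-impaired 1 to 5 had 1.07, 1.75, 2.16, 3.66 and 2.63 CPM, and impaired 1 to 5 had 4.42, 6.54, 10.2, 6.39 and 8.76 CPM. Every non-impaired library was below every other library. Its log2 fold change was -1.57 against naive (SE 0.34) and -1.704 against impaired corneas (SE 0.33).

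**Figure D3:**
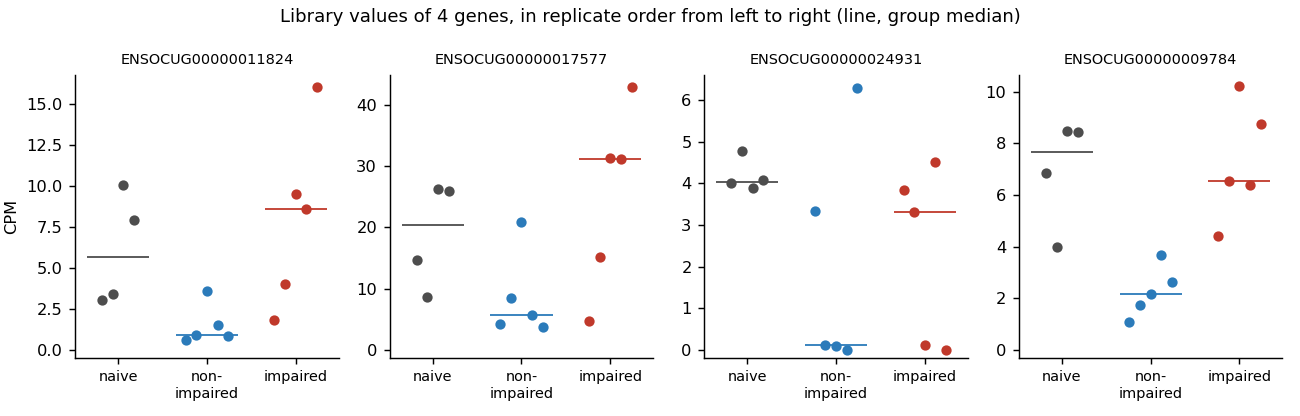
CPM of the 4 members given by ID in each library, with points in replicate order within each group and a line at the group median. ENSOCUG00000009784 separates the non-impaired corneas from all others, whereas ENSOCUG00000024931 falls into libraries near 0 and libraries above 3 CPM in both exposed groups.

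Among the abundant members the dip was seen at high counts, but not all of them separated the groups. The most abundant member had 665, 577, 787 and 848 CPM in naive 1 to 4, and 276, 314, 473, 467 and 383 CPM in non-impaired 1 to 5. Impaired 2 to 5 had 758, 821, 750 and 1042 CPM, but impaired 1 had 380 CPM, which lay within the non-impaired range. In the next most abundant member the naive and impaired corneas were close: naive corneas had 550 to 648 CPM, impaired corneas 492 to 595 CPM and non-impaired corneas 311 to 428 CPM, with impaired 1 at 595 CPM, the highest of its group. The member at rank 55 by the depth of the dip, with a naive median of 159 CPM, overlapped widely. Its non-impaired 3 and 5 had 169 and 183 CPM, above naive 4 at 67.9 CPM and impaired 4 and 5 at 83.7 and 85.7 CPM. Its log2 fold change was -0.35 against naive (SE 0.40) and -0.35 against impaired corneas (SE 0.38), and it was called lower in neither comparison.

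The impaired median was above the naive median in 95 members, but by more than 1.4 times in only the 32 given above. The largest ratio of impaired to naive medians was 3.22, in a member with 5.38, 3.66, 7.005 and 10.5 CPM in naive 1 to 4. Its non-impaired libraries held 1.96 to 5.65 CPM, and impaired 1 to 5 held 7.75, 19.96, 16.4, 27.8 and 28.1 CPM. The member with the third largest ratio had 4.98, 4.25, 7.005 and 7.37 CPM in naive 1 to 4 and 12.2, 15.1, 12.5, 25.4 and 14.6 CPM in impaired 1 to 5. Its log2 fold change was 1.52 (SE 0.30), and these groups did not overlap. In that member the non-impaired libraries, at 1.91 to 4.58 CPM, overlapped the naive range only at its lower end.

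Calls by edgeR at an adjusted p below 0.05 (quasi-likelihood test, Benjamini-Hochberg over 10048 genes) describe how far the choice by medians held against the spread of the libraries. Of the 140 members, 91 were called lower in non-impaired corneas than in the naive ones, where 9.99% of all tested genes were called lower. Against impaired corneas 119 members were called lower, with 18.4% of all tested genes. In both comparisons 89 members were called lower (4.44% of all tested genes), 2 only against naive, 30 only against impaired, and 19 in neither. Both comparisons use the same non-impaired libraries and the rule used both contrasts, so nothing is read from these shares. The median log2 fold change of non-impaired corneas over the members was -0.93 against naive and -1.10 against impaired corneas, beside medians of -0.0040 and -0.0043 over all tested genes.

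Between impaired and naive corneas 12 members were called higher, 8.57% of them, where 19.8% of all tested genes were called higher. No member was called lower (15.8% of all tested genes were), and no member was lower at an unadjusted p below 0.05 either; with limma voom 1 member was called lower. The rule bounded this ratio, so the shares follow in part from it. In the 12 members log2 fold changes ran from 0.62 to 1.68, and 8 of the 12 were also called lower in non-impaired corneas than in both other groups. The number called higher turned on single libraries: it was 31 without impaired 1, 20 without naive 4, and 5 to 7 without naive 1, 2 or 3, or without impaired 2 or 5. Calls over all tested genes moved too. From 1989 of 10048 in the main fit they went to 2118 of 9986 without impaired 1 and 2177 of 10157 without naive 4. Without naive 1, 2 or 3 they were 1544 of 10155, 1628 of 10157 and 1595 of 10178. Without impaired 2 or 5 they were 1731 and 1842 of 10008.

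Without any fit, every non-impaired library was below every naive library in 89 members (14.5% of all tested genes) and below every impaired library in 69 members (11.8% of all tested genes). Both held for 60 members (4.03% of all tested genes). With impaired 1 set aside, a setting looked at for its values, the last count was 81 members (5.09% of all tested genes), and 105 members then lay wholly below impaired 2 to 5 (15.8% of all tested genes). For single libraries, impaired 1 exceeded all 5 non-impaired libraries in 83 members, against 114 to 130 members for impaired 2 to 5 and 103 to 126 for the naive libraries. Over all tested genes the shares were 36.1% for impaired 1, the highest of these 9 libraries, 27.6% to 33.6% for impaired 2 to 5 and 32.1% to 34.0% for the naive libraries.

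The median member followed the groups and, within them, single libraries. Its level, as log2 of CPM plus 0.5 over the naive median plus 0.5, was -1.04, -1.06, -0.79, -0.82 and -0.95 in non-impaired 1 to 5. In naive 1 to 4 it was -0.12, -0.23, 0.12 and 0.16, and in impaired 1 to 5 it was -0.44, 0.07, 0.25, 0.12 and 0.39. The non-impaired libraries stood together below all others, and impaired 1 lay between them and the naive libraries. Over all 7828 genes the same median stayed between -0.16 and 0.02 in every library. Together the members made up 0.298% to 0.381% of the counts in non-impaired libraries, 0.514% to 0.748% in naive and 0.511% to 0.837% in impaired libraries.

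**Figure D4:**
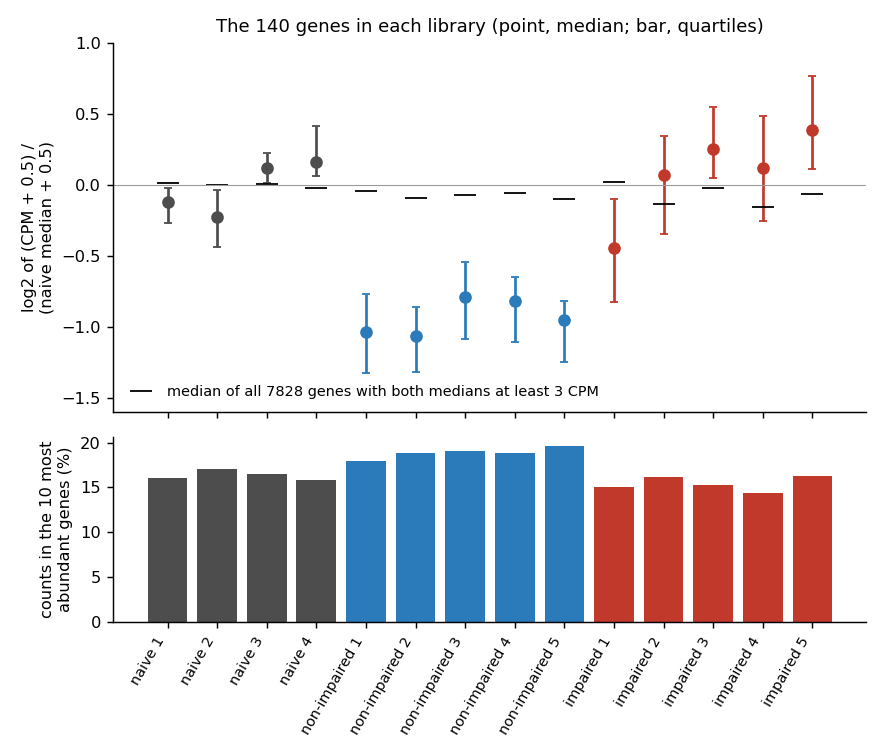
Upper panel, median and quartiles over the 140 members of log2 of CPM plus 0.5 over the naive median plus 0.5 in each library, with the median over 7828 genes as a dash. Lower panel, share of each library's counts in its 10 most abundant genes; the 5 non-impaired libraries have the lowest member medians (-1.06 to -0.79) and the highest shares (17.9% to 19.6%).

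The share of counts in the 10 most abundant genes was also set apart in the non-impaired libraries, at 17.9% to 19.6% against 15.9% to 17.1% in naive and 14.4% to 16.3% in impaired libraries. Its part in the result was not tested. These shares use each library's own 10 genes. Leaving a fixed set out of the library totals, the 10 genes with the highest mean CPM over all libraries, gave 133 members, of which 120 were among the 140. Within groups, naive 2 had the highest share and the lowest member level and naive 4 the lowest share and the highest level, while impaired 5 had the highest share and the highest level of its group. Non-impaired 1 had the lowest share of its group, and non-impaired 2 the lowest level.

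Which library was the lowest or highest of its group differed between the members and the 7828 genes. Impaired 1 was the lowest impaired library in 99 members (70.7%), where it was the lowest in 19.4% of the 7828 genes. Impaired 5 was the highest in 67 members (47.9% against 16.6%). Among naive corneas, naive 2 was the lowest in 80 members (57.1% against 27.4%) and naive 4 the highest in 73 (52.1% against 30.0%). At the other end the members had the smaller shares. Impaired 1 was the highest impaired library in 10 members (7.14% against 41.7%). Naive 4 was the lowest naive library in 10 (7.14% against 40.2%). The coefficient of variation within groups was larger than usual for this data set: its median over members was 21.98% in naive, 24.03% in non-impaired and 31.4% in impaired corneas, against 11.9%, 11.0% and 16.2% over the 7828 more abundant genes.

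To follow this beyond the group differences, each gene's log2 values were taken as deviations from its own group means, and the deviations over the 14 libraries were compared with the median deviation of the other members. Pearson's r was above 0.5 in 100 of 140 members and above 0.8 in 49, with a median of 0.717. Over the 7688 genes that are no members it was above 0.5 in 12.4% and had a median of -0.14. These are descriptions over 14 libraries that share their scaling, and genes are not independent replicates. The median deviation was lowest in impaired 1, at -0.51, and highest in impaired 5, at 0.35, so that these libraries weigh most in it. Without impaired 1, a setting added after the data were seen, r was above 0.5 in 80 members, 78 of them among the 100, and above 0.8 in 22, with a median of 0.552. It was then above 0.5 in 12.1% of the non-members, with a median of 0.061.

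The other 40 members had an r of at most 0.5, and in 18 of them it was negative. Without impaired 1 it was also negative in 18, of which 14 were the same genes. Among the 18 members with a negative r over all libraries, 2 were called lower in non-impaired corneas than in both other groups, as were 71 of the 100 with r above 0.5 and 4.44% of all tested genes. Every non-impaired library lay below all others in 1 of the 18 and 46 of the 100, and in 4.03% of all tested genes. The 18 were also less abundant, with a median naive level of 8.38 CPM against 16.4 CPM in the 100, and its part was not tested. As the group medians chose all of these members, the counts are descriptions. One such member, at rank 29 by the depth of the dip, had 61.2, 15.3, 17.1 and 76.4 CPM in naive 1 to 4, so that naive 1 and 4 were high. Another, at rank 120, had 24.6, 6.86, 5.16 and 25.1 CPM in the same libraries. Both also had their highest non-impaired value in non-impaired 1 and their highest impaired value in impaired 1, at 34.7 and 38.1 CPM in the former and 8.56 and 13.1 CPM in the latter.

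The genes outside the group were arranged along the same measures. Among 153 non-members with r above 0.8 the median dip ratio was 0.791, and 127 of them (83.0%) had their non-impaired median below both other medians. The median ratio was 0.913 for the 803 genes with r from 0.5 to 0.8, 1.02 for 2100 genes from 0 to 0.5, 1.13 for 3113 genes from -0.5 to 0 and 1.31 for 1519 genes under -0.5, of which 8.10% were lowest in non-impaired corneas. Both sides of the ratio moved along r: from the lowest to the highest bin, the median ratio of impaired to naive medians was 0.797, 0.898, 1.04, 1.18 and 1.20, and that of non-impaired to naive medians was 1.00, 0.945, 0.940, 0.886 and 0.778. The non-impaired to naive ratio thus changed little among the genes with r from -0.5 to 0.5. Without impaired 1, the median dip ratio was 0.797 over the 50 non-members with r above 0.8 and 1.33 over the 471 under -0.5. Removal of group means takes the difference between means out of r, but the dip ratio is made of medians, so the 2 measures are linked. In the members' median deviation the middle impaired library stood at 0.07 (impaired 4) and the middle non-impaired library at -0.05 (non-impaired 5). A gene that follows these deviations has a lower dip ratio for that reason, so part of the trend along r is built in. Both measures also come from the same libraries and scaling, and no test was made.

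**Figure D5:**
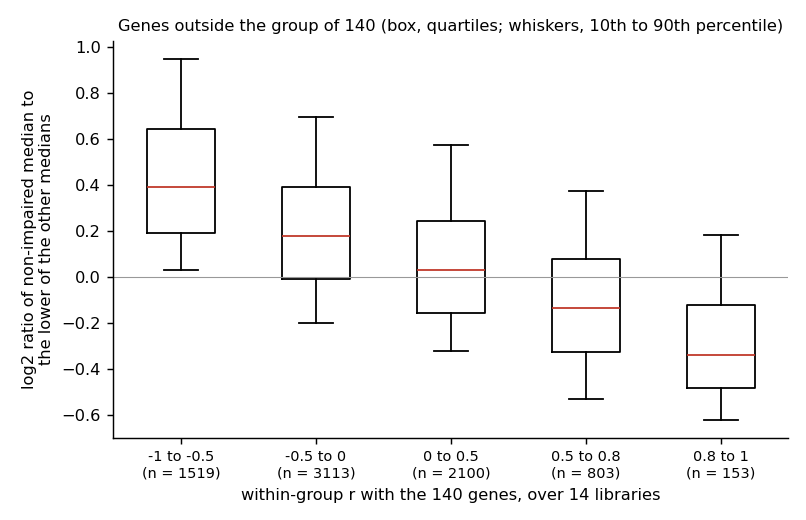
Log2 ratio of the non-impaired median to the lower of the naive and impaired medians (y axis) for 7688 genes outside the group, binned by the within-group correlation of their deviations with the members' median deviation over 14 libraries (x axis). The median ratio falls from 1.31 in the leftmost bin to 0.791 in the rightmost on the linear scale.

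The level in a library left out of the choice was not itself used in it, but the medians it is compared with were. Each non-impaired library was left out in turn, the genes were chosen again from the other 13 libraries, and the library left out was compared with the naive and impaired medians. The genes chosen numbered 137 to 159. In non-impaired 1 to 5 as the library left out, 61.6%, 71.2%, 43.4%, 50.3% and 72.3% of them were at or under 0.6 times both medians, where 2.29% to 3.60% of all genes with both medians of at least 3 CPM were. Between 87.0% and 98.7% lay below both medians, beside 32.7% to 38.2% of all those genes. Both shares exceeded those over all genes in each library left out. At the limit of 0.6 the share was highest in non-impaired 5 and lowest in non-impaired 3, whereas below both medians it was highest in non-impaired 4 and lowest in non-impaired 1. The naive and impaired medians in these comparisons also made the choice, so part of each excess follows from it. All these values share the naive and impaired libraries.

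The same was done for the other groups. With impaired 1 left out of the choice, the non-impaired median was at most 0.6 times the level of impaired 1 in 30.8% of the genes chosen, whereas the share was 58.7% to 89.3% when impaired 2, 3, 4 or 5 was left out. The non-impaired median was below that level to any extent in 86.2% of the genes so chosen for impaired 1, beside 62.8% of all genes with both medians of at least 3 CPM. For impaired 2 to 5 this second share was 92.0%, 98.5%, 85.2% and 82.3%, beside 44.1%, 53.7%, 42.6% and 48.4% of all those genes. Impaired 1 was thus the lowest at the limit of 0.6 but not in direction. Among naive corneas the share at most 0.6 times was 55.1%, 37.7%, 78.0% and 92.0% for naive 1 to 4. In every case it exceeded the share over all those genes, which was 5.65% to 10.1%. Here the non-impaired median had also made the choice, so part of each excess follows from it.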

How the data were processed

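The authors deposited raw counts, whole numbers per Ensembl rabbit gene ID, in 1 file for each of 14 libraries, with no pooling of replicates. Libraries had been made from total RNA with a TruSeq kit, per the labels' protocols. Tools listed in the submitters' processing notes are TopHat2 2.1.0, bcl2fastq 2.17, DESeq and Cufflinks 2.0.2, with OryCun2.0 as the build. The counting program, its strand setting and the annotation release are not given in the sources used here, so counts of overlapping, antisense or near-identical genes are uncertain.

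The members, lists and tests were chosen with earlier results of these data known. Groups follow the clinical status in the labels, and replicate numbers only name libraries. Library totals ranged from 12002876 to 17488019, and no library pair was near-identical (lowest chi-square per degree of freedom 14.1). CPM in the rule and in all values used column totals. Calls came from edgeR 4.0.16 in R 4.3.3 (default expression filter, TMM, robust quasi-likelihood, all 3 groups in 1 fit, 11 residual degrees of freedom), tested on simulated data. The simulation drew genes independently, without deviations shared within a library, so it does not cover the covariation seen in the members. Standard errors were the absolute log2 fold change over the square root of F. Log2 levels used a pseudocount of 0.5 CPM. Without gene names, by a rule set beforehand, IDs were printed for 4 members only, and the gene lists and markers could not be applied. Members cited by abundance, ratio or rank were picked after their values were seen. Alternatives used DESeq2 1.42.0, limma 3.58.1 with voom, other filters, scalings and limits in the rule, and each library left out in turn; leaving out impaired 1 and naive 4 together was added after the data were seen.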

Additional observations from a re-analysis of the deposited data

Results flagged for a closer look

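In ENSOCUG00000017577, non-impaired 3 stood far from the other non-impaired libraries, at 20.9 CPM with the next highest at 8.46 CPM, a gap of 0.721 of the group's range against a critical value of 0.71. It was the only one of 21 group values examined in this way to stand out, where chance flags about 1 in 20. The median level and the summed CPM of the members in the impaired group, both lowest in impaired 1, were among the 21 and were not flagged.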

How the results depend on the processing

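The number of members followed the limits of the rule: 55 with a dip of at most 0.5 times, 343 with at most 0.7 times, 82 with a floor of 10 CPM and 195 with a floor of 1 CPM. Rescaling by TMM gave 135 members, 121 of them among the 140, and means in place of medians gave 151, of which 104 were shared. Leaving out each library in turn gave 112 (without naive 4) to 189 members (without impaired 4), and leaving out both impaired 1 and naive 4 gave 125. For the 140 members, calls lower in non-impaired corneas numbered 63 to 107 against naive, 107 to 121 against impaired and 61 to 105 against both over the fits without 1 library, and members wholly below all other libraries 60 to 81. The other fits and scalings stayed within 1.5 times the main counts. Calls lower over all tested genes moved in the same fits. Against naive they ran from 620 of 10178 (without naive 3) to 1226 of 9986 (without impaired 1). Against impaired corneas they ran from 1474 of 10021 (without non-impaired 5) to 1945 of 9986 (without impaired 1). Members called higher in impaired than in naive corneas numbered 5 to 31 without 1 library, 30 with limma voom, 7 in a fit on only the 2 groups compared and 40 without impaired 1 and naive 4. Over all tested genes these calls numbered 1544 to 2177 without 1 library and 2446 with limma voom. They numbered 1526 in the fit on 2 groups and 2417 without impaired 1 and naive 4. The cause was not tested. Members called lower in impaired than in naive corneas numbered 0 to 1 without 1 library and 1 with limma voom. For ENSOCUG00000024931 the log2 fold change of non-impaired against impaired corneas reversed to 0.34 with limma voom and ranged from -1.36 to 0.20 without 1 library. No paired analysis was possible because the replicate numbers used here follow accession order, not the labels, and pair no libraries. Depth limits the members of low abundance most, the lowest with 76 counts over 5 libraries.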
